A study of Homo sapiens with 8 samples.

Results

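The second week of a Cas13d dropout screen, from Day 7 to Day 14, is described here for A375, a long-established line of human melanoma cells. For each guide and replicate, the Day 7 log2 fold change was subtracted from the Day 14 value, in which the Day 0 library cancels. The median of the 963 non-targeting guides of that replicate was then subtracted, and values were averaged over the guides of a gene. Of 1250 targeted genes, 1223 had the required 3 or more guides, and the other 27 were left out. Of these 1223, 182 were lost mainly in the second week, by a definition given further on that orders the weeks without testing their difference. The comparison used 4 of the 8 libraries, 2 replicates each of Day 7 and Day 14.

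The cells were a single clone carrying the RNA-cutting nuclease RfxCas13d under a doxycycline-inducible TetO promoter, with a lentiviral pool of guides against exon-exon junctions. Day 0 cells were labelled as untreated, and Day 7, Day 14 and Day 21 cells had received doxycycline at 1 ug/ml. Guide cassettes were amplified from genomic DNA, so the data count carrier cells and contain no expression value with which to check the line or the knockdown. The labels do not say that the replicates were separate cultures, so p-values measure only the spread between these samples.

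Cas13 enzymes cut RNA that pairs with their guide and leave the gene itself intact. A guide against a transcript that cells need for growth becomes rarer in the pool as its carriers are diluted by other cells. How soon this shows depends on how long the RNA is held down, how long the existing protein lasts and how fast cells divide without it. Ribosomal proteins, splicing factors, nuclear transport factors and the proteasome serve nearly all dividing cells, whereas dependence on the MAPK pathway is known for BRAF-mutant melanoma lines such as A375.

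Read depth was not given, but in each of the 6 libraries with values 100% of the values were, apart from a constant per library, the log2 of one whole number over another (no divisor above 2000, relative tolerance 1e-09). The numerators, called implied numbers here, had medians per guide of 119 and 139 at Day 7 and of 92 and 139 at Day 14 in replicates 1 and 2. They are lower bounds on what was counted plus any pseudocount, which is not stated. An implied 1, the lowest implied number, was found at Day 14 for 465 guides in replicate 1 and 1259 in replicate 2, up from 8 and 88 at Day 7. The implied number of a guide at that level could go no lower in the third week. Second-week losses that end there are limited too, and the effect on the calls was not tested.

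Loss in the second week was common among genes of the screened set. Of the 1223 genes, 233 fell (19.1%) and 5 rose (0.409%) at an adjusted p under 0.05 in limma's moderated test of the 2 replicate values against 0, with Benjamini-Hochberg adjustment. Without adjustment, 443 genes had a p under 0.05. By comparison, 37 genes fell in the first week (3.03%) and none rose, and in the third week limma called 0 genes (143 at an unadjusted p under 0.05). Of the 37 genes that fell in the first week, 35 were among the 233.

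Those counts depend on the fit. The test treats Day 7 and Day 14 of one replicate number as a pair, and limma without the replicate block called 35 genes, all lower and all among the 238. Centring on the median of all guides, which itself fell by 0.29 in replicate 1 and by 0.11 in replicate 2, gave 109 lower and 7 higher genes.

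The table sorts genes into 3 types, whose criterion is not stated and may rest on these same fold changes. Of the 479 genes typed essential, 190 fell (39.7%), as did 25 of 350 typed not essential (7.14%) and 18 of 394 non-essential controls (4.57%). Second-week changes were below 0 in both replicates for 821 of the 1223 genes (67.1%), and at -1 or lower in both for 76 (6.21%). The median change over all tested genes was -0.33 in replicate 1 and -0.21 in replicate 2. Gene means of the replicates correlated with r = 0.851 over the 829 scored genes (those with a deposited GeCKO score) and r = 0.348 over the 394 controls, as a description across genes that share libraries. Controls had a median of 6 guides each, against 39 for scored genes.

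**Figure D1:**
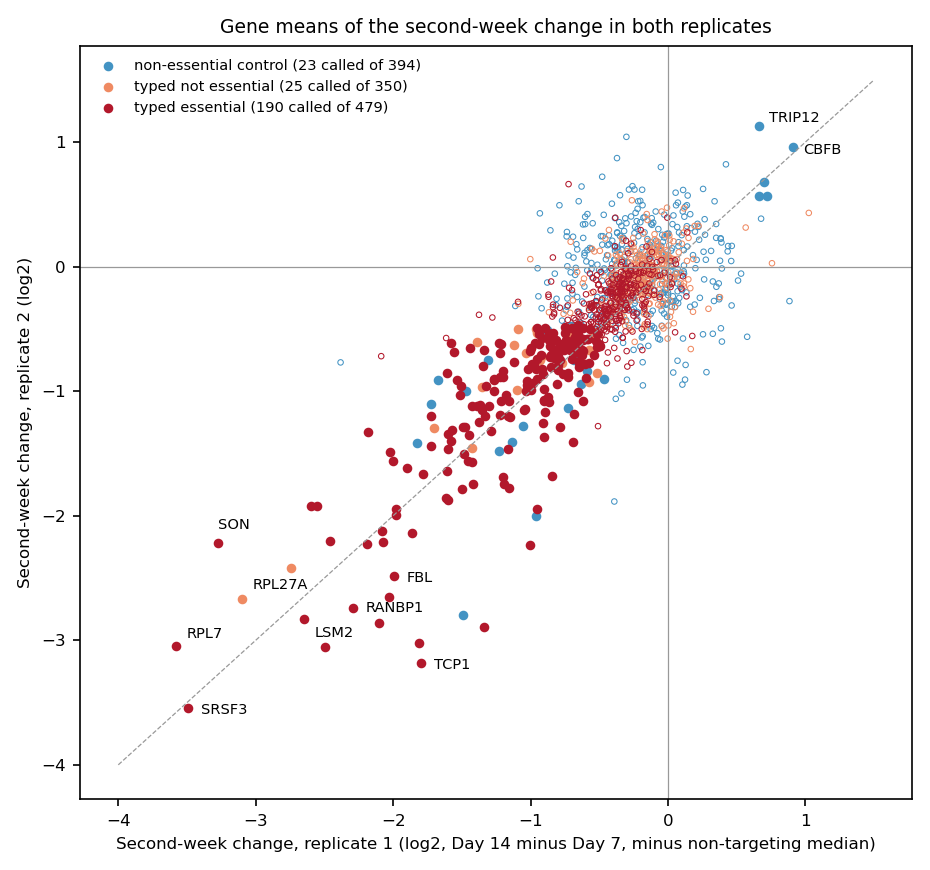
Second-week change of each gene in replicate 1 (x axis, log2) and replicate 2 (y axis, log2), coloured by deposited type. Filled points passed the test, open points did not, and the dashed line marks equal values; SRSF3 lies lowest in replicate 2 and all 5 filled points above 0 are controls.

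Single guides showed the same order of types with wide spread. A change of -1 or lower in both replicates was found for 13.9% of guides against genes typed essential, 4.21% of those typed not essential and 2.66% of control guides. The share was 1.14% of non-targeting guides, or 11 of 963. Below 0 in both replicates were 25.9% of non-targeting guides and 45.4% of guides against genes typed essential. Such counts for single genes further on describe genes chosen on these same values. The median guide against a gene typed essential stood at -0.32 ± 0.12 (SD, n = 2), against -0.10 ± 0.09 for genes typed not essential and -0.08 ± 0.13 for controls. Only the first of these means exceeded its SD by more than 1.5 times, and 2 paired values cannot reach an exact two-sided sign-flip p below 0.5.

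Genes were counted as lost mainly in the second week when they fell in the test and their change in that week was below those of both other weeks in each replicate. This held for 182 genes (14.9%), 152 typed essential, 18 typed not essential and 12 controls. Their median changes were -0.24 in the first, -0.87 in the second and -0.28 in the third week, and a median of 79.3% of the change up to Day 14 came in the second week. In 148 of the 182 the first-week mean was above -0.5, a count not set against all 1223 genes. In the first week limma called 12 of the 182 lower, and 37 of all 1223 genes. The choice fixes the order of the weeks, so these values describe the genes and test nothing. At the edge, RPL13 was included with replicate 2 values of -0.84 in both of the first 2 weeks, and PRPF8 was not, with -0.96 in both.

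The timing difference itself was tested as second-week minus first-week change. It was negative and called for 57 genes (4.66%) and positive for 5 (0.409%), with 162 genes at an unadjusted p under 0.05. Of the 182 genes lost mainly in the second week, whose choice fixes the sign of this difference, 50 were called. limma estimated a single standard error of 0.29 shared by all genes here, so that these calls follow the size of the mean difference. This shared SE does not show how far the 2 replicates of a single gene differ. The Day 7 library enters both weeks with opposite sign, and an error in it would move them apart. Centring on control guides or on all guides gave 0 calls in limma (165 and 148 at an unadjusted p under 0.05), and so did the fit with no replicate block (58). For second-week minus third-week change limma called 0 genes (187 unadjusted), with 0 to 9 under other settings.

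The replicates differed in timing. Among the 233 genes that fell, the first-week change was lower in replicate 2 than in replicate 1 for 219 (94.0%), and over all 1223 genes for 939 (76.8%). Median first-week changes of the 233 were -0.16 in replicate 1 and -0.44 in replicate 2, and second-week medians were -0.97 and -0.89. The second week held the lowest of the 3 changes for 215 of the 233 in replicate 1 and for 191 in replicate 2. Over all 1223 genes it did so for 866 in replicate 1 and 651 in replicate 2. Among the 394 controls the counts were 215 and 136.

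Counts by gene list are set against the shares over all 1223 genes, of which 19.1% fell in the second week, 14.9% were lost mainly then, 3.03% fell in the first week and 4.66% had a called lower second-week than first-week change. Of the 233 genes that fell, 78.1% were lost mainly in the second week. The 1223 include 394 controls, which fell less often than the 829 scored genes, so more than 19.1% of scored genes fell. A list share modestly above 19.1% or 14.9% may therefore be no higher than among scored genes. A list share at or below 19.1% lies below that of scored genes. No list was tested as a set.

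Splicing factors supplied the lowest gene of all. SRSF3 is an SR protein that binds exons and guides splice site choice and RNA export. Its second-week change was -3.49 in replicate 1 and -3.54 in replicate 2, after first-week changes of -0.73 and -1.04. That is an 11.4-fold drop relative to non-targeting guides within the week (limma adjusted p = 0.00272), and 14 of its 16 guides were below 0 in both replicates. By Day 14, 6 of the 16 guides in replicate 1 and 5 in replicate 2 had an implied number of 1, and third-week changes were -0.29 and 0.34. Its guides sat on junctions at chr6:36596968-36598848, with a mean of -4.44, and chr6:36601794-36601961, with -2.59 (hg38, as deposited).

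SON is a large nuclear speckle protein that helps splice weak introns. The 8 guides against it, all on 1 junction, averaged -3.27 in replicate 1 and -2.22 in replicate 2 (limma adjusted p = 0.00699). It went on falling to a similar degree in the third week in replicate 2, at -1.85, but less in replicate 1, at -0.55. Of the 17 SR, SON and hnRNP genes, 11 fell in the second week (64.7%, against 19.1% of all genes), 9 of them mainly then, and 2 fell in the first. The list median moved from -0.33 in the first week to -1.09 in the second, against -0.04 and -0.24 over all genes tested.

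The rings of Sm and LSm proteins hold spliceosomal snRNAs and, for LSm2 to LSm8, the U6 snRNA. SNRPF, the Sm protein F, changed by -2.50 and -3.06 in the second week and by -0.83 and -1.71 in the first. LSM2 changed by -2.65 and -2.83, and all of its 16 guides were below 0 in both replicates. LSM7 changed by -2.60 and -1.92 over 8 guides. In each of these genes both replicates were lower in the second week than in the first. Mean differences were -1.50 for SNRPF, -1.93 for LSM2 and -1.46 for LSM7 (shared SE 0.29). Of the 25 snRNP core and tri-snRNP genes, 12 fell (48.0%, against 19.1% of all genes), and 10 of the 25 were lost mainly in the second week, against 14.9% of all genes.

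SF3B1, which recognises the branch point as part of the U2 snRNP, had a different course. It changed by -1.59 and -3.36 in the first week and by -2.55 and -1.92 in the second, so the replicates disagreed on which week was lower. In replicate 2, 4 of its 20 guides had an implied number of 1 at Day 7 and 10 at Day 14, which limits its second-week change. Of the 6 SF3A and SF3B genes 4 fell (66.7%, against 19.1%), and SF3A3, with -1.39 and -1.12, was among the 3 lost mainly in the second week. EIF4A3, a core protein of the exon junction complex, led the list of Prp19-associated and catalytic splicing factors at -1.53 and -0.91, where 3 of 13 fell (23.1%), a share near that of all genes.

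**Figure D2:**
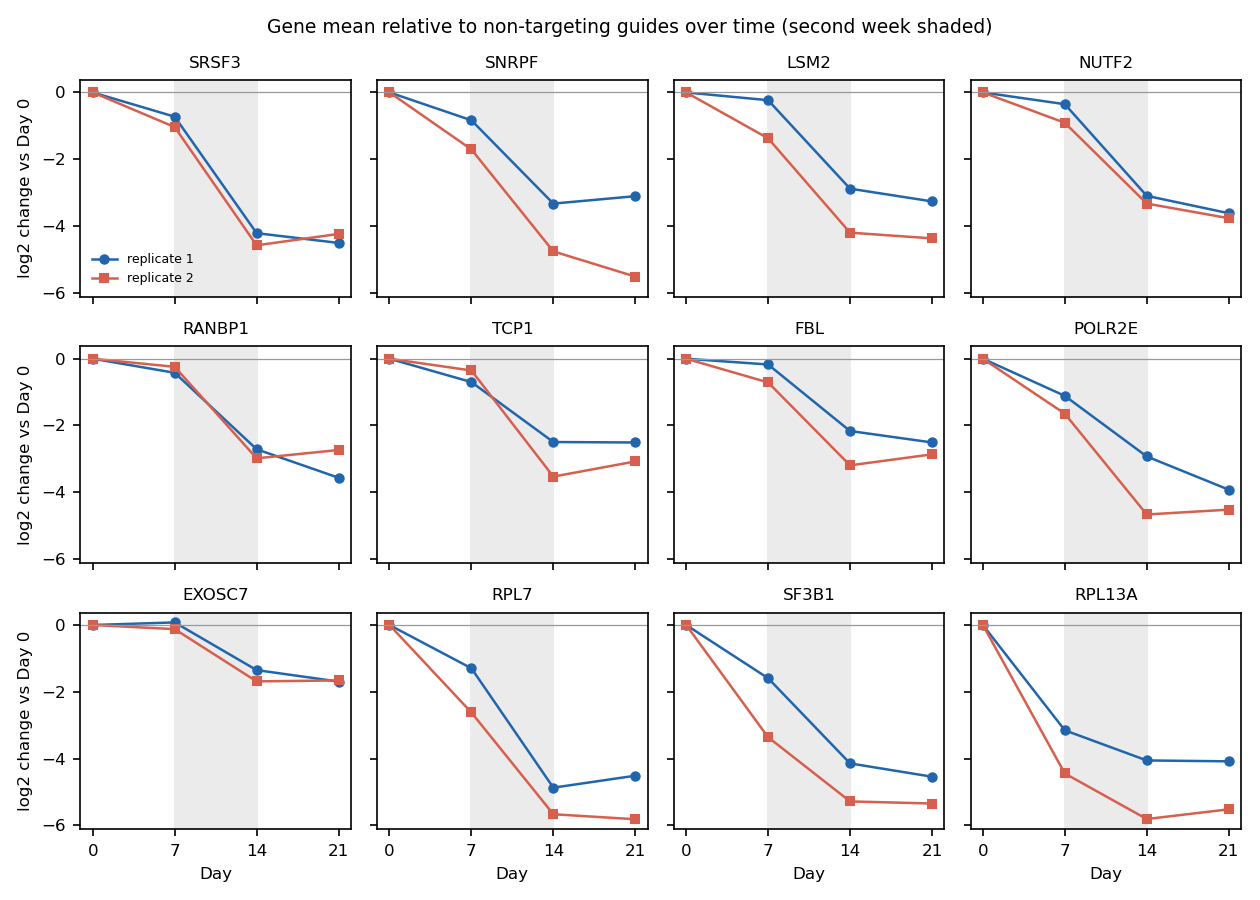
Gene mean of the log2 change from Day 0, after subtraction of the non-targeting median, at Day 0, 7, 14 and 21 (x axis) in replicate 1 (circles) and replicate 2 (squares) for 12 genes. The second week is shaded; SRSF3, NUTF2, RANBP1, TCP1, FBL and EXOSC7 have their steepest segment there in both replicates, whereas RPL13A has it in the first week.

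Of 22 nuclear pore and transport genes, 11 fell (50.0%, against 19.1% of all genes), and all 11 were lost mainly in the second week, as were 78.1% of all genes that fell. For 7 of the 22 the difference from the first week was called lower, against 4.66% of all genes, and 1 of the 22 was called lower in the first week. How lists differed from each other was not tested. NUTF2 imports the GTPase Ran into the nucleus. Its change was -2.75 in replicate 1 and -2.42 in replicate 2, a 5.99-fold drop (limma adjusted p = 0.00327), with all 16 guides below 0 in both replicates. The deposited table types NUTF2 as not essential, and among the genes of that type that fell only RPL27A had a lower mean.

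RANBP1 assists GTP hydrolysis by Ran. Over 6 guides its change was -2.29 and -2.74 in the second week after -0.42 and -0.24 in the first. The mean difference was -2.18 (shared SE 0.29). RAN itself changed by -2.19 and -2.23 after -0.95 and -1.56. The nucleoporins NUP54 (-1.57 and -1.32) and NUP85 (-1.36 and -1.15) and the export receptor XPO5 (-0.91 and -1.08) were lost to a smaller degree, with first-week means from -0.30 to -0.09.

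Ribosomal proteins of the large subunit were lost in both weeks. Of 28 tested, 23 fell in the second week (82.1%, against 19.1% of all genes), 9 of them mainly then, and 19 fell in the first, of 37 first-week calls in all. The list median was -1.29 in the first week and -1.20 in the second, with -0.91 and -1.68 as the first-week medians of replicates 1 and 2. RPL7 changed by -3.58 and -3.05 in the second week after -1.30 and -2.62. RPL27A changed by -3.10 and -2.67 after -1.37 and -3.03, and so its replicates disagree on the lower week. At Day 14 in replicate 2, 9 of 16 RPL7 guides and 3 of 8 RPL27A guides had an implied number of 1.

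RPLP2, a protein of the ribosomal stalk, lost as much in either week, with means of -2.44 and -2.48. At Day 14, 4 of its 7 guides in replicate 2 had an implied number of 1. RPL38 (-2.03 and -2.65) and RPL4 (-2.46 and -2.20) lost more in the second week in both replicates, by means of -1.16 and -1.0. The opposite course was seen for RPL13A, named after its values were seen. Its first-week change of -3.15 and -4.45 was followed by -0.90 and -1.37, a mean difference of 2.67 (shared SE 0.29). At Day 14, 4 of its 8 guides in replicate 2 had an implied number of 1.

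Small-subunit proteins had their lowest list median in the second week. Of 16 tested, 11 fell in the second week (68.8%, against 19.1% of all genes), 8 of them mainly then, and 3 fell in the first. The list median was -0.51 in the first and -1.07 in the second week. RPS28 (-1.90 and -1.62 after -0.45 and -1.0) lost more in the second week in both replicates.

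Ribosome biogenesis and translation factor genes included some that fell in the second week. FBL, fibrillarin, methylates ribosomal RNA as part of box C/D snoRNPs. It changed by -1.99 and -2.48 in the second week after -0.17 and -0.71 (mean difference -1.80, shared SE 0.29). Of the 59 ribosome biogenesis genes 15 fell in the second week (25.4%, against 19.1% of all genes), and 14 were lost mainly then (23.7%, against 14.9%). The 25.4% may be no higher than the share of scored genes that fell. HEATR1, which acts in small-subunit processing, changed by -1.03 and -0.95 after 0.00 and -0.13. Of 19 translation factors 8 fell (42.1%), led by EIF3B, the scaffold of initiation factor 3, at -1.50 and -1.78 over 96 guides. The 8 include EIF4A3, which is also counted above among the splicing factors. SARS, the seryl-tRNA synthetase, at -1.38 and -1.25, was the only 1 of 13 cytosolic synthetase genes to fall (7.69%, against 19.1%). At an unadjusted p under 0.05 in limma, in either direction, were 6 of these 13 genes and 443 of all 1223.

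FBL also showed how far guides of a gene can differ. Its mean was -4.43 over 5 guides at chr19:39836668-39837710 and -3.39 over 8 guides at chr19:39837843-39839034. At the next junction downstream, chr19:39834813-39836555, the mean of 5 guides was 0.07, with -0.09 and 0.22 in the replicates. For SARS, 8 guides at chr1:109228432-109229413 averaged -2.72 and 8 at chr1:109231786-109235209 averaged 0.02. Guides on a junction share their target, so a gene mean partly reflects which junctions were used. Of the 192 genes that fell and had 2 or more junctions, 70 had every junction below 0 in both replicates, a description of genes chosen on these same values.

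**Figure D3:**
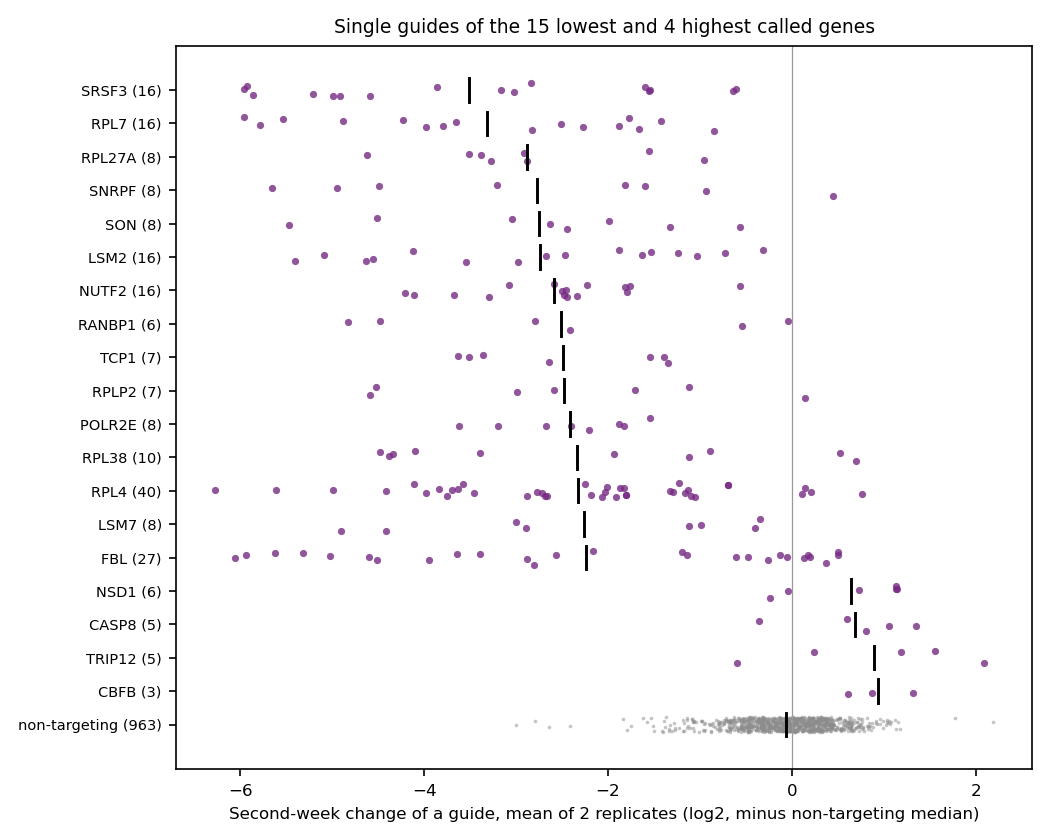
Second-week change of single guides (x axis, log2, mean of 2 replicates) for the 15 lowest and the 4 highest genes called, with the number of guides in brackets, and for non-targeting guides. Black bars are means; all 16 NUTF2 guides and all 16 LSM2 guides lie below 0, whereas FBL guides run from about -6 to above 0.

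**Figure D4:**
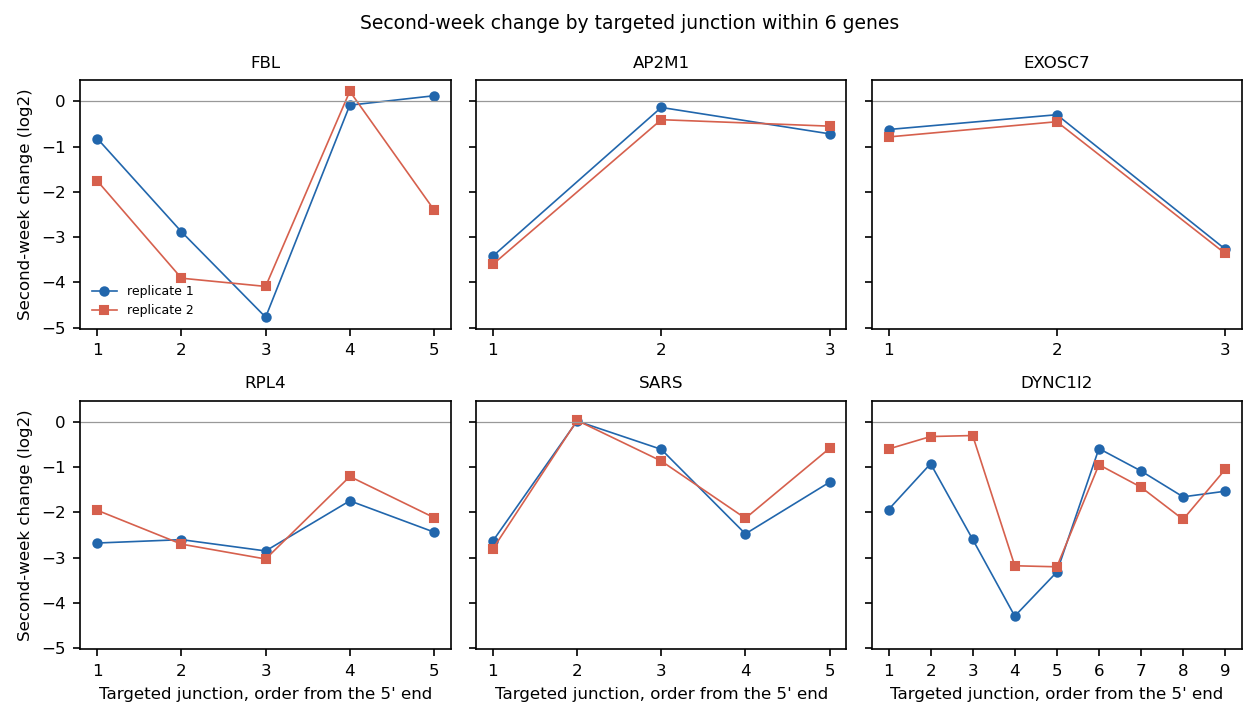
Mean second-week change (y axis, log2) at each targeted junction of 6 genes, ordered from the 5' end of the transcript (x axis), in replicate 1 (circles) and replicate 2 (squares). EXOSC7 is low mainly at junction 3 and SARS is near 0 at junction 2, while all RPL4 junctions are below 0.

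Genes of transcription and RNA decay that fell included some with a first-week change near 0. POLR2E, a subunit shared by the 3 nuclear RNA polymerases, changed by -1.82 and -3.02 after -1.11 and -1.65. Of 14 polymerase genes 5 fell (35.7%, against 19.1% of all genes), and these 5 were lost mainly in the second week, as were 78.1% of all genes that fell. EXOSC7, a ring subunit of the RNA exosome, changed by 0.08 and -0.12 in the first week and by -1.43 and -1.57 in the second, a 2.82-fold drop (limma adjusted p = 0.00558). Most of that came from 8 guides at chr3:44997252-45001537, with a mean of -3.31, since its other junctions stood at -0.71 and -0.37. Of 28 chromatin genes 4 fell, of 24 Mediator and general transcription factor genes 4, and of 22 exosome, 3' end and Integrator genes 4. These shares of 14.3%, 16.7% and 18.2% lie near but below the 19.1% of all genes, and so below that of scored genes. At an unadjusted p under 0.05 in limma, in either direction, the counts were 15, 6 and 12, against 443 of all 1223 genes. GTF3C4, a TFIIIC subunit with 4 guides, changed by -1.58 and -0.61, and by -1.22 in the third week in replicate 2. Its call (limma adjusted p = 0.0483) was lost with centring on all guides, with the minimum implied number, in the robust fit and with no replicate block, at adjusted p from 0.0525 to 0.0987.

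Genes of protein folding and turnover took both courses. TCP1, a subunit of the chaperonin that folds actin and tubulin, changed by -1.80 in replicate 1 and -3.18 in replicate 2 after -0.70 and -0.35. All 7 of its guides were below 0 in both replicates. Its partner subunit CCT8 changed by -1.62 and -1.86 over 62 guides, and 7 of 19 chaperone genes fell (36.8%, against 19.1% of all genes). PSMD1, a base subunit of the proteasome, changed by -1.19 and -2.25 in the first week and by -1.61 and -1.64 in the second. In replicate 2, 6 of its 83 guides had an implied number of 1 at Day 7 and 29 at Day 14. Of 27 proteasome genes 8 fell (29.6%), and 6 were lost mainly in the second week (22.2%, against 14.9% of all genes). ANAPC4, a scaffold of the anaphase-promoting complex, changed by -1.58 and -1.40 over 167 guides on 24 junctions, all with means below 0, from -3.67 to -0.12.

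Among 40 replication genes 13 fell (32.5%, against 19.1% of all genes), 11 mainly in the second week. POLD2, a subunit of DNA polymerase delta, changed by 0.32 and -0.26 in the first week and by -1.16 and -1.78 in the second, but in replicate 1 the third-week change was as low, at -1.18. The helicase subunit MCM4 changed by -1.22 and -1.19. DYNC1I2, a cytoplasmic dynein intermediate chain, changed by -2.0 and -1.56, and 9 of 41 kinetochore and spindle genes fell (near the 19.1% of all genes), a count that includes the control CEP170. AP2M1, the cargo-binding subunit of the clathrin adaptor AP-2, changed by -1.46 and -1.56. Its mean was -3.51 at 1 junction with 8 of its 23 guides, and -0.27 and -0.63 at the others. Of 39 secretory pathway genes 11 fell (28.2%, against 19.1%). NFS1, the cysteine desulfurase that supplies sulfur to iron-sulfur clusters, changed by -1.98 and -1.95, and 6 of 20 genes for nucleotide synthesis and iron-sulfur clusters fell (30.0%).

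Among mitochondrial genes, 3 of 39 for the mitochondrial ribosome, translation and import fell (7.69%, against 19.1% of all genes), and 1 of the 3, GTPBP4, is better known from nucleolar ribosome assembly. TOMM22, an import receptor of the outer membrane, changed by -1.01 and -2.24, with -3.27 at 1 of its 3 junctions. limma called 0 of 7 respiratory chain genes and 0 of 8 cohesin and condensin genes, with 0 and 3 at an unadjusted p under 0.05. In the cohesin and condensin list 6 of 8 were below 0 in both replicates, with a median of -0.30 against -0.24 for all genes.

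The list of MAPK signalling, melanocyte lineage and cell survival genes had 7 tested members, which include MAX, MDM2, CCND1 and MTOR, and 5 of the 7 fell in the second week (71.4%, against 19.1% of all genes). BRAF, the kinase that is commonly mutated in melanoma, changed by -1.70 and -1.29 after -0.37 and -1.38. CCND1, cyclin D1, was earlier, with -0.87 and -1.65 in the first week and -0.58 and -0.92 in the second. MAP2K1 (-0.62 and -0.78) and MTOR (-0.63 and -0.67) were lost mainly in the second week.

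**Figure D5:**
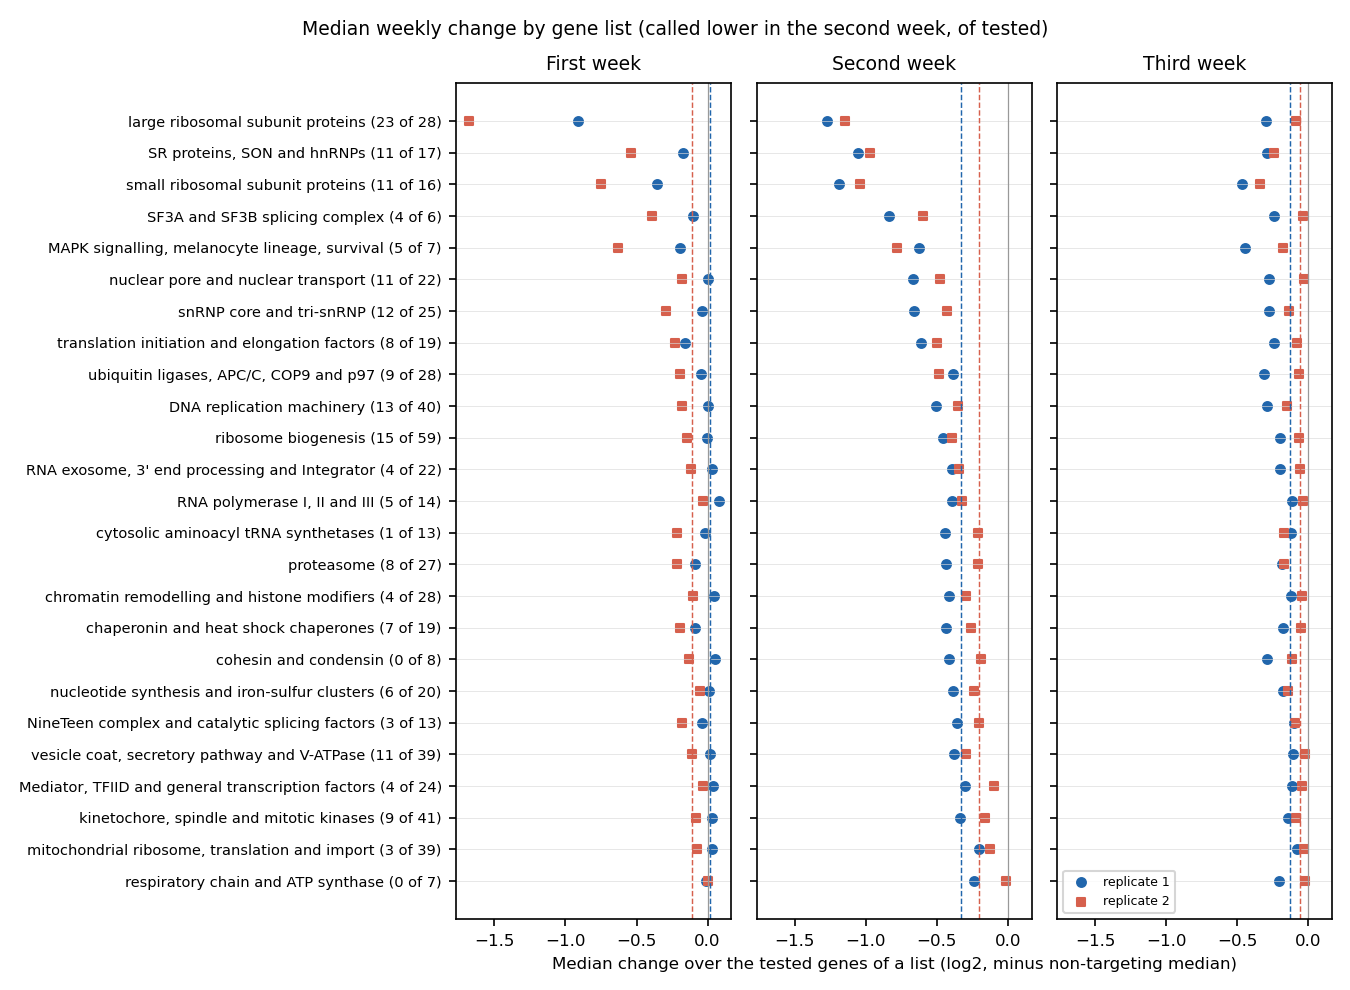
Median change over the tested genes of each of 25 lists (log2) in the first, the second and the third week, for replicate 1 (circles) and replicate 2 (squares), with the number that fell in the second week of those tested. Dashed lines are the medians of all 1223 genes; large ribosomal subunit genes are low in both of the first 2 weeks, and the SR protein and nuclear transport medians are lower in the second week than in the other 2.

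All 5 genes that rose were non-essential controls with 3 to 6 guides. CBFB, a partner of RUNX transcription factors, changed by 0.91 and 0.96 over 3 guides after -0.62 and -0.08 in the first week. TRIP12, a ubiquitin ligase, changed by 0.66 and 1.13, and its junctions stood at 1.61 (3 guides) and -0.18 (2 guides). A single TRIP12 guide in replicate 2 had implied numbers of 228 at Day 7, 1279 at Day 14 and 4722 at Day 21. CASP8, which starts death receptor apoptosis, changed by 0.70 and 0.68, NSD1, a histone H3 lysine methyltransferase, by 0.72 and 0.57, and TIAL1, an RNA-binding protein, by 0.66 and 0.57. The control with the lowest mean was PSIP1, at -1.49 and -2.79 over 3 guides.

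The GeCKO score, which the table gives per gene without saying how it was made, differed little between the groups. Its median was -1.17 for genes lost mainly in the second week, -1.21 for the other 51 genes that fell (6 of these are controls with no score) and -1.10 for scored genes that did not. Over the 829 scored genes it correlated with the second-week mean at r = 0.19 and rho = 0.14, as a description. After Day 14, 128 of the 182 genes had a third-week change below 0 in both replicates. The share over all 1223 genes is not given here, so the count does not set these genes apart. In the third week limma called 0 genes.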

How the data were processed

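The authors deposited a single table of log2 fold changes against Day 0, one per guide, day and replicate, together with a GeCKO score per gene (how it was made is not given in the sources used here). Per the submitters' processing notes, cutadapt 3.5 and Bowtie 1.1.2 were used with genome build hg38. Library scaling, any pseudocount and filters are not given in the sources used here. The LFC values were used as deposited: weekly changes were differences within a replicate, centred on non-targeting guides and averaged over at least 3 guides per gene. Mean changes were tested against 0 with limma 3.58.1 in R 4.3.3 (lmFit, eBayes, two-sided, Benjamini-Hochberg over 1223 genes, adjusted p under 0.05), after the code had been tested on simulated data. No read counts were used, so intervals for depth are not given. The implied numbers carry counting error and other variation, which were not separated.

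Libraries were paired by the labels' replicate numbers, and each deposited fold change already refers to Day 0 of its own replicate. Deviations of same-numbered Day 7 and Day 14 libraries correlated at r = 0.484 over guides, part of which is the shared Day 0 library. Genes named by rule were the 15 lowest called, the 4 highest called, the 8 with the lowest second-week minus first-week difference among those lost mainly in the second week, and the lowest called gene of each list; others were named as list members after their values were seen. Some genes that the rule names are not reported here. The members and the 25 lists, built from gene symbols, were chosen with earlier results of these data known. Of the 1223 genes, 1198 matched RefSeq by symbol (GRCh38.p14), and 6528 of 6529 matched junctions lay inside their gene. Guide sequences were not used here. Alternatives covered centring, the summary over guides, guide and implied-number minimums, a robust fit, joint weeks, no pairing and left-out replicates.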

Additional observations from a re-analysis of the deposited data

Results flagged for a closer look

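The week-to-week difference was called for 57 genes with a lower and 5 with a higher second-week than first-week change, in limma with a shared standard error. Among the reported genes named by rule, the second-week minus first-week difference was -2.63 for SRSF3, -2.18 for RANBP1, -1.96 for TCP1, -1.95 for NUTF2, -1.93 for LSM2, -1.83 for SON and -1.80 for FBL. It was -1.50 for SNRPF and POLD2, -1.47 for EXOSC7, -1.46 for LSM7, -1.35 for RPL7 and -1.24 for AP2M1. Values of -1.17 were found for NFS1 and DYNC1I2, -1.16 for RPL38, -1.13 for ANAPC4, -1.09 for TOMM22 and SARS, -1.04 for POLR2E and -1.0 for RPL4 and EIF3B. CBFB went the other way, at 1.29. The Day 7 library enters both weeks with opposite sign, and its part in these differences was not tested.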

How the results depend on the processing

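The second-week count of 238 called genes became 116 with centring on all guides, 139 with the median over guides, 367 with the 3 weeks fitted together and 35 with no replicate block. Leaving out 1 library at a time needed a fit with no replicate block, which here also used the Day 21 libraries. It takes the lone sample to vary like the libraries of the other days, so its calls are not given. The other 6 settings gave 176 to 275. The second-week minus first-week count of 62 became 0 with centring on all guides, 0 with centring on control guides, 11 with the median over guides, 1 with the weeks fitted together and 0 with no replicate block. Genes with that difference at -1 or lower numbered 39, and 33 to 87 with 1 replicate left out, 87 being without replicate 2. The second-week minus third-week count of 0 became 8 without centring, 7 with control guides, 9 with the median over guides, 2 at an implied Day 0 number of at least 50 and 3 with the weeks fitted together. The class value of guides typed essential became -0.53 when means replaced medians, both for these guides and for the non-targeting guides subtracted. Among the 35 genes named by rule, no direction reversed in the settings run, but CBFB had no value at an implied Day 0 number of at least 50. Centring on all guides ended the calls of TOMM22 and GTF3C4, the implied-number minimum those of TOMM22, GTF3C4 and CASP8, the robust fit that of GTF3C4, and 20 of 35 calls were lost with no replicate block. The causes were not tested. Guides at an implied 1 by Day 14 limit how second-week and third-week changes can be read.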
